A study of Mus musculus with 18 samples.

Results

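The 42 genes described here carry out mitosis: they build the spindle and the kinetochores, condense chromosomes, time anaphase and drive entry into division through Cdk1. They were listed by name and matched by RefSeq accession to probe sets of the array, with the probe set of highest mean standing for each gene. Of the 42 genes 41 had a probe set, out of 20233 genes measured. The remaining gene, the cyclin gene Ccnb1, had no matching accession and was not analysed here. Levels came from 18 one-colour Affymetrix arrays, 2 for each of 9 groups of mouse cells in which Oct4, Sox2, Klf4 and c-Myc (OSKM) turn fibroblasts into induced pluripotent stem cells (iPSC). All groups shared the Oct4-GFP/Rosa26-M2rtTA background, in which the M2rtTA transactivator switches the factor transgenes on when doxycycline is present.

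Day 0 was the secondary mouse embryonic fibroblast at passage 4, taken at E13.5 from embryos grown wholly from iPSC by tetraploid complementation, before induction and in a feeder medium. Days 1, 3, 5, 7, 11 and 15 were cells kept in embryonic stem cell medium with doxycycline at 1 µg/ml and vitamin C at 50 µg/ml. Day 18 was the doxycycline-independent population left 3 days after both additives were taken away. The iPSC group was 1 established line held in stem cell medium with Gsk3 and Mek inhibitors. The labels mention culture with and without feeder cells and do not say which was put on the arrays. Comparisons of days 1 to 15 with day 0 therefore hold the medium, vitamin C and doxycycline along with the factors, that of day 18 the medium and the earlier treatment, and that of iPSC the medium and both inhibitors. The effects of these cannot be told apart. The labels name 2 replicates per group without saying whether they were separate cultures, so p-values measure the spread between these arrays only.

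Genes of mitosis are mostly silent in resting cells and are transcribed as a wave late in the cell cycle, so that their level in a bulk culture follows how many cells are dividing. In quiescent cells the DREAM complex holds many of them down through a short promoter element, the cell cycle genes homology region (CHR). In cycling cells B-Myb (Mybl2) and FoxM1 act through the same MuvB core, and NF-Y binds nearby CCAAT boxes. Mouse embryonic stem cells and iPSC have a short G1 phase, and fast division is also a known early trait of cells that go on to reprogram. In bulk RNA a larger share of dividing cells and more RNA per cell cannot be told apart.

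Promoter windows from RefSeq (build GRCm38.p6), reaching from 250 bases before to 50 bases after the annotated start, were at hand for 35 of the 42 genes, Ccnb1 included. The CHR was searched as TTTGAA and in its variant form TTTAAA, on either strand. It occurred in 28 of these 35 (80.0%), against 30.6% of 27025 genes with a window. Within 50 bases of the start, on either side, it occurred in 24 of 35 (68.6%), against 9.54%. The CCAAT box, on either strand, occurred in 27 of 35 (77.1%), against 41.1%, and at least 2 boxes in 17 of 35 (48.6%), against 13.3%. The members with a window and no CHR were 7, namely Nek2, Bub1, Mad2l1, Cdc25b, Ncaph, Pttg1 and Nuf2. In the windows of members 1 CHR match overlapped a CCAAT match. A match of letters is a description of the sequence and shows no binding. The 150 bases before the start follow for 5 members that hold a CHR there and for 2 without one, Nek2, which changed most on day 1, and Cdc25b, which correlated least with the other members. They are written 5′ to 3′ on the gene's strand, with CHR and CCAAT letters in capitals. A CHR on the other strand reads TTCAAA here, and a CCAAT box on the other strand reads ATTGG.
Cdk1: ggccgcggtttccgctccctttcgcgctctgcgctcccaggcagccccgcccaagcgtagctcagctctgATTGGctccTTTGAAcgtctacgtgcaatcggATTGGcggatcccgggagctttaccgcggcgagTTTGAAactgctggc
Cdc20: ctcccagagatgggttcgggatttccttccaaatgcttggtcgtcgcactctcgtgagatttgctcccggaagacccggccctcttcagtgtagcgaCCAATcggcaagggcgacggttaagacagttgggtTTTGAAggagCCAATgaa
Ube2c: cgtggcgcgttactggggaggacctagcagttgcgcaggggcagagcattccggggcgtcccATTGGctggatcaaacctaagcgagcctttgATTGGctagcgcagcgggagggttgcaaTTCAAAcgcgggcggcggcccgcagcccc
Top2a: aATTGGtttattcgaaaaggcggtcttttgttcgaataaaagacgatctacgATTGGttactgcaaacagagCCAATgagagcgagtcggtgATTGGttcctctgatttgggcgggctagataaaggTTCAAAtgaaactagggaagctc
Plk1: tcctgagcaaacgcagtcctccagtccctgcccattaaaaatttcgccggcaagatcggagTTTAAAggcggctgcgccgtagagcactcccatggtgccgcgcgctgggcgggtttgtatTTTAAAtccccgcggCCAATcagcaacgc
Nek2: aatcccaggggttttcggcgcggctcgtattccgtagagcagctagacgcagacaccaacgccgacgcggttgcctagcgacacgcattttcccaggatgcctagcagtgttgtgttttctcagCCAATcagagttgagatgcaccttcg
Cdc25b: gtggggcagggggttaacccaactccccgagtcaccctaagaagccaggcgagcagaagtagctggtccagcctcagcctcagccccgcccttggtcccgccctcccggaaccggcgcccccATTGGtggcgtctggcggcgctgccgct

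These stretches lie at chr10:69352913-69353062 on the minus strand for Cdk1, chr4:118437344-118437493 minus for Cdc20, chr2:164769779-164769928 plus for Ube2c and chr11:99024190-99024339 minus for Top2a. Those of Plk1, Nek2 and Cdc25b lie at chr7:122159285-122159434, chr1:191821323-191821472 and chr2:131186798-131186947, all on the plus strand. The stretches of Cdk1 and Plk1 hold 2 CHR each, and the 4 CCAAT boxes of Top2a are the most among the printed stretches.

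Over all genes the arrays of a group correlated at r = 0.997 to 0.998, those of day 18 at 0.993. The day 18 pair held 264 genes more than 2-fold apart, where no other pair held over 16. Values are RMA log2 levels, and 95% of 1075 olfactory receptor genes, mostly silent in these cells, had a mean level under log2 5.28, used here as the background. No member lay under it in any group mean. Of 10 fibroblast markers the mean level was log2 10.71 to 10.74 on day 0, 6.08 to 6.12 on day 15, 7.27 to 8.24 on day 18 and 8.58 to 8.74 in iPSC, where 1 of the 10 was under the background. Col1a1, a main fibroblast collagen gene, read 11.62 and 11.44 in iPSC and 7.96 and 7.97 on day 15. Feeder cells, which the labels allow for in the iPSC cultures, and the line itself cannot be told apart as the source. All 10 pluripotency markers were above the background in iPSC, and 7 of 10 were under it on day 0. The 7 macrophage markers measured averaged 6.94 to 7.12 on day 0 and 5.06 to 5.15 in iPSC, with 4 of 7 under the background there. The 8 keratinocyte markers averaged 5.15 to 5.20 on day 0, 8.39 to 8.51 on day 15 and 5.47 to 5.55 in iPSC. Over 8 housekeeping genes the mean was 10.75 to 10.81 on day 0 and 11.01 to 11.25 in the later groups, highest on days 3 and 7. The part of other cells in the levels below was not tested.

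All 41 members stood higher than on day 0 on every later day and in iPSC, and most of the distance was covered on day 1. Their mean level was log2 8.49 ± 0.03 (SD, n = 2) at day 0 and 9.67 ± 0.03 at day 1. It stood at 9.54 ± 0.05 by day 3, at 9.64 ± 0.01 by day 5 and at 9.68 ± 0.00 by day 7. Later it was 9.90 ± 0.01 (day 11), 9.81 ± 0.00 (day 15) and 9.84 ± 0.09 (day 18), with 10.07 ± 0.07 for iPSC. The day 0 arrays, at 8.47 and 8.51, lay far below all others, and the day 18 arrays, at 9.77 and 9.90, enclosed day 15. The median member was 1.22 higher on the log2 scale on day 1 than on day 0 (2.33-fold) and 1.51 higher in iPSC (2.85-fold), against a median of 0.01 over all genes in both comparisons. In limma's F test over the 9 groups 41 of 41 members passed a Benjamini-Hochberg adjusted p of 0.05, against 78.8% of all genes.

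**Figure D1:**
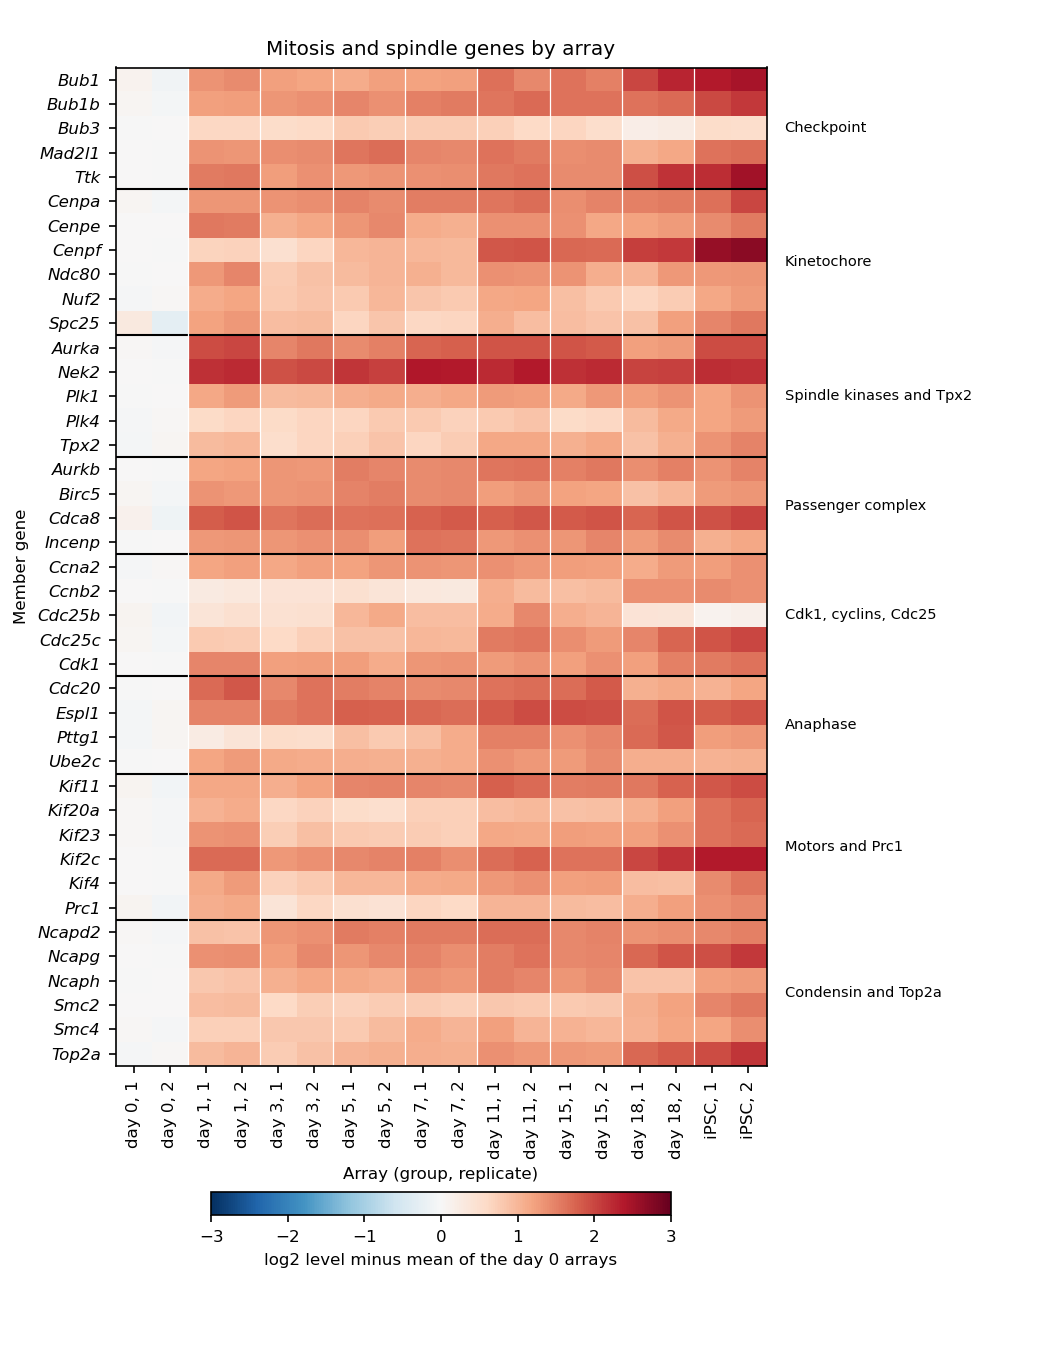
Log2 level of each of 41 members (rows, grouped by role) on each of 18 arrays (columns, group and replicate number) minus the mean of the 2 day 0 arrays, from blue (lower) through white to red (higher). Every member is red from day 1 on, palest for Bub3, Ccnb2 and Cdc25b, and Cenpf is darkest in iPSC at 2.66 above day 0.

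A gene was called where limma's adjusted p was under 0.05 and the log2 difference at least 1 in size. On day 1 against day 0, 28 of 41 members rose (68.3%), against 7.62% of all genes called higher. Day 3 had 22 (background 8.68%), day 5 had 27 (9.50%) and day 7 had 28 (10.1%). The count was 37 for day 11 (9.89%), 33 for day 15 (10.0%), 34 for day 18 (8.87%) and 39 for iPSC (10.1%). None of the 41 was called lower in any of the 8 comparisons, in which 6.54%, 8.94%, 9.75%, 9.85%, 9.64%, 8.83%, 8.64% and 9.79% of all genes were called lower, in the same order. All these comparisons share the 2 day 0 arrays. By adjusted p alone, with no minimum fold, 41 of 41 members were higher on each day and 40 of 41 in iPSC, against 27.8%, 34.5%, 36.0%, 32.9%, 33.0%, 32.3%, 28.7% and 30.2% of all genes in the same order. Without the first day 18 array the day 18 count was 35, and without the second it was 32.

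**Figure D2:**
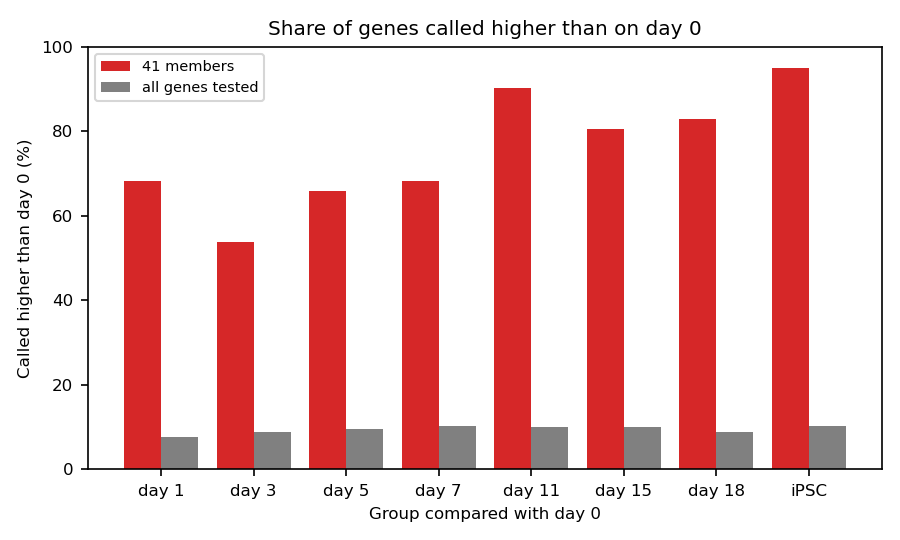
Percent of the 41 members (red) and of all 20233 genes tested (grey) called higher than on day 0, for each of 8 groups. The members' bars run from 53.7% on day 3 to 95.1% in iPSC, the grey ones from 7.62% to 10.1%.

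The checkpoint genes keep anaphase waiting until every kinetochore is attached. Bub1, the kinase Ttk and the BubR1 gene Bub1b work at kinetochores, and Mad2l1, Bub3 and Bub1b enter the complex that blocks Cdc20. On day 1 and in iPSC 4 of these 5 rose, and Bub3 was not called in any comparison with day 0. Bub1 stood at log2 9.06 and 8.83 on day 0, 10.30 and 10.36 on day 1, 10.18 and 10.14 on day 3, 10.06 and 10.17 on day 5. It was at 10.16 and 10.18 on day 7, 10.60 and 10.38 on day 11, 10.58 and 10.45 on day 15, then at 10.94 and 11.23 on day 18, 11.33 and 11.42 in iPSC. Bub1 rose by 1.38 ± 0.11 (SE) on day 1 (limma adjusted p = 7.08e-08) and stood 2.43 ± 0.11 above day 0 in iPSC (adjusted p = 1.76e-10). For Bub3 the arrays read 9.38 and 9.42 on day 0, 10.03 and 10.03 on day 1, 9.96 and 9.99 on day 3, 10.19 and 10.14 on day 5. They then read 10.16 and 10.15 on day 7, 10.12 and 9.99 on day 11, 10.05 and 9.92 on day 15, followed by 9.60 and 9.65 on day 18, 9.94 and 9.92 in iPSC. Bub3 stayed between 9.92 and 10.19 outside days 0 and 18, and day 18, 0.23 above day 0, was the lowest group after it. Ttk read 7.20 and 7.18 on day 0, 8.60 and 8.61 on day 15 and then 9.13 and 9.36 on day 18, 9.40 and 9.72 in iPSC, so that both day 18 arrays lay above both day 15 arrays. Bub1b and Mad2l1 were 2.06 and 1.65 above day 0 in iPSC.

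The kinetochore genes join chromosomes to microtubules. Cenpa encodes the histone variant that marks centromeres, Ndc80, Nuf2 and Spc25 subunits of the Ndc80 complex that holds microtubules, Cenpe a motor and Cenpf a large outer protein of the corona. On day 1 5 of 6 rose, on day 3 2 were called, and on day 11 and in iPSC 6 of 6. The day 11 call of Spc25, at 1.00, was lost under 5 alternatives, with 0.71 without the second day 0 array as the lowest value, and its day 1 call was lost without that array, at 0.96. Cenpf stood at log2 7.47 and 7.45 on day 0, 8.13 and 8.16 on day 1, 7.95 and 8.11 on day 3, 8.46 and 8.48 on day 5. It was at 8.45 and 8.44 on day 7, 9.32 and 9.34 on day 11, 9.18 and 9.17 on day 15, then at 9.54 and 9.58 on day 18, 10.07 and 10.16 in iPSC. Between neighbouring groups the difference of Cenpf was largest from day 7 to day 11, at 0.88 ± 0.06 (SE). It stood 2.66 ± 0.06 above day 0 in iPSC (limma adjusted p = 8.15e-13), the largest difference among the 41 members. For Nuf2 the arrays read 7.49 and 7.58 on day 0, 8.65 and 8.72 on day 1, 8.33 and 8.39 on day 3, 8.33 and 8.54 on day 5. They then read 8.37 and 8.32 on day 7, 8.70 and 8.72 on day 11, 8.44 and 8.33 on day 15, followed by 8.19 and 8.30 on day 18, 8.69 and 8.81 in iPSC. Nuf2 was as high on day 1 as on day 11, with both day 3 and both day 7 arrays lower. Ndc80 and Cenpe had the same order of day 1 and day 3, with day 3 minus day 1 differences of -0.56 ± 0.10 and -0.46 ± 0.08. Spc25 read 8.13 and 7.55 on day 0, the widest gap between arrays of a group among all members.

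The spindle kinases act at centrosomes and spindle poles. Nek2 splits the centrosomes, Plk1 drives many steps of mitosis, Plk4 starts centriole copying, and Aurka builds the spindle with its activator Tpx2. On day 1 3 of the 5 rose, in iPSC 5 of 5. Nek2 stood at log2 6.91 and 6.89 on day 0, 9.10 and 9.14 on day 1, 8.80 and 8.88 on day 3, 9.05 and 8.96 on day 5. It was at 9.30 and 9.29 on day 7, 9.14 and 9.29 on day 11, 9.08 and 9.13 on day 15, then at 8.92 and 8.94 on day 18, 9.12 and 9.09 in iPSC. Nek2 was the member with the largest rise on day 1, 4.67-fold or 2.22 ± 0.07 (SE; limma adjusted p = 1.39e-11), and iPSC stood no further from day 0, at 2.21 ± 0.07. For Plk4 the arrays read 8.52 and 8.57 on day 0, 9.12 and 9.20 on day 1, 9.13 and 9.18 on day 3, 9.20 and 9.34 on day 5. They then read 9.32 and 9.23 on day 7, 9.32 and 9.41 on day 11, 9.11 and 9.16 on day 15, followed by 9.49 and 9.68 on day 18, 9.74 and 9.82 in iPSC. Plk4 was not called before day 18, where it stood 1.05 above day 0 (0.95, and not called, without the second day 18 array), and was 1.24 above it in iPSC. Aurka read 8.29 and 8.24 on day 0, 10.23 and 10.26 on day 1, 9.68 and 9.77 on day 5, 10.16 and 10.10 on day 15 and 9.49 and 9.54 on day 18, 10.22 and 10.23 in iPSC. Both day 18 arrays of Aurka lay below every array of days 1 to 15, and both iPSC arrays lay back at the day 1 level. Plk1 lay between 10.53 and 10.94 on all arrays from day 1 on.

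The chromosomal passenger complex corrects wrong attachments and later steers cytokinesis, with Aurkb as its kinase, Incenp as scaffold, and survivin (Birc5) and borealin (Cdca8) as targeting subunits. All 4 rose on day 1 and were called in every comparison with day 0 except Birc5 on day 18, at 0.93. With the mean of its probe sets Birc5 stood at 1.09 there and was called. Cdca8 stood at log2 7.92 and 7.67 on day 0, 9.60 and 9.67 on day 1, 9.39 and 9.48 on day 3, 9.43 and 9.44 on day 5. It was at 9.57 and 9.64 on day 7, 9.58 and 9.65 on day 11, 9.64 and 9.68 on day 15, then at 9.55 and 9.68 on day 18, 9.70 and 9.83 in iPSC. Cdca8 thus stood 1.84 above day 0 on day 1 and 1.97 above it in iPSC, the largest iPSC difference of the complex. For Incenp the arrays read 7.44 and 7.45 on day 0, 8.75 and 8.78 on day 1, 8.78 and 8.82 on day 3, 8.84 and 8.70 on day 5. They then read 9.08 and 9.05 on day 7, 8.74 and 8.81 on day 11, 8.78 and 8.90 on day 15, followed by 8.72 and 8.87 on day 18, 8.51 and 8.60 in iPSC. Incenp was highest on day 7 and lower in iPSC than on any induction day, with -0.28 ± 0.07 (SE) for iPSC against day 15 (limma adjusted p = 0.00605), a difference under the fold minimum.

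Cdk1 with cyclins A2 and B is the motor of mitotic entry, and the phosphatases Cdc25b and Cdc25c switch it on. This group had the lowest median difference on day 1, 0.77, when 2 of its 5 measured members rose, Cdk1 by 1.45 ± 0.09 (SE) and Ccna2 by 1.20 ± 0.07. On day 11 5 of 5 were called, though without the first day 11 array Ccnb2 stood at 0.96 and was not. Cdk1 read 9.56 and 9.54 on day 0, 11.01 and 11.01 on day 1, 10.78 and 10.93 on day 15, 11.11 and 11.18 in iPSC, and Ccna2 10.19 and 10.27 on day 0, 11.41 and 11.45 on day 1, 11.49 and 11.46 on day 15, 11.49 and 11.59 in iPSC. Cdc25c stood at log2 6.99 and 6.86 on day 0, 7.71 and 7.68 on day 1, 7.52 and 7.63 on day 3, 7.80 and 7.81 on day 5. It was at 7.91 and 7.89 on day 7, 8.49 and 8.54 on day 11, 8.31 and 8.20 on day 15, then at 8.38 and 8.66 on day 18, 8.81 and 8.93 in iPSC. Both day 11 arrays of Cdc25c lay above all arrays of days 0 to 7. For Cdc25b the arrays read 7.72 and 7.55 on day 0, 8.02 and 8.11 on day 1, 8.09 and 8.12 on day 3, 8.64 and 8.76 on day 5. They then read 8.55 and 8.57 on day 7, 8.74 and 9.08 on day 11, 8.73 and 8.66 on day 15, followed by 8.05 and 8.03 on day 18, 7.73 and 7.79 in iPSC. After day 15 the order of groups was not the same for the 2 phosphatase genes, a difference that was not tested. Cdc25c went on to its highest level in iPSC, 1.94 ± 0.09 above day 0, whereas Cdc25b was highest on day 11 and in iPSC stood 0.13 ± 0.10 above day 0 (limma adjusted p = 0.298). Cdc25b was -0.94 ± 0.10 in iPSC against day 15, which passed adjusted p (2.01e-06) and not the fold minimum, and it was the member with the lowest correlation to the others. Ccnb2 stood at log2 10.24 and 10.22 on day 0, 10.49 and 10.55 on day 1, 10.64 and 10.65 on day 3, 10.70 and 10.62 on day 5. It was at 10.54 and 10.53 on day 7, 11.32 and 11.19 on day 11, 11.13 and 11.17 on day 15, then at 11.61 and 11.60 on day 18, 11.65 and 11.60 in iPSC. Ccnb2, the B cyclin measured here, was 0.29 above day 0 on day 1, the smallest difference of any member, and stood 0.72 ± 0.06 (SE) higher on day 11 than on day 7.

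The anaphase genes end mitosis: Cdc20 and the ubiquitin-conjugating enzyme Ube2c work with the anaphase-promoting complex, which destroys securin (Pttg1) and so frees the cohesin protease separase (Espl1). On day 1 3 of 4 rose, and from day 7 on 4 of 4 were called against day 0. The day 7 call of Pttg1, at 1.01, was lost under 4 alternatives, down to 0.91 without the second day 7 array. With arrays centred on their median Ube2c stood just under the fold minimum on day 18 and in iPSC. Espl1 stood at log2 6.93 and 7.04 on day 0, 8.47 and 8.48 on day 1, 8.55 and 8.62 on day 3, 8.78 and 8.75 on day 5. It was at 8.70 and 8.67 on day 7, 8.83 and 8.95 on day 11, 8.95 and 8.93 on day 15, then at 8.66 and 8.87 on day 18, 8.81 and 8.87 in iPSC. From day 1 on Espl1 stayed between 8.47 and 8.95. For Ube2c the arrays read 10.88 and 10.90 on day 0, 12.08 and 12.16 on day 1, 12.02 and 12.01 on day 3, 11.98 and 11.95 on day 5. They then read 11.96 and 12.00 on day 7, 12.26 and 12.20 on day 11, 12.16 and 12.30 on day 15, followed by 11.98 and 11.97 on day 18, 11.93 and 11.95 in iPSC. From day 1 on Ube2c stayed between 11.93 and 12.30. Ube2c had the highest log2 reading of the members, and on an array the readings of different probe sets cannot be compared as amounts. Cdc20 stood at log2 8.54 and 8.58 on day 0, 10.25 and 10.42 on day 1, 10.00 and 10.19 on day 3, 10.09 and 10.05 on day 5. It was at 9.97 and 10.00 on day 7, 10.19 and 10.24 on day 11, 10.23 and 10.39 on day 15, then at 9.62 and 9.69 on day 18, 9.60 and 9.74 in iPSC. Cdc20 stood 1.77 ± 0.09 above day 0 on day 1 and 1.11 ± 0.09 in iPSC, and all 4 arrays of day 18 and iPSC lay below all 12 induction arrays. For Pttg1 the arrays read 8.27 and 8.38 on day 0, 8.57 and 8.70 on day 1, 8.87 and 8.86 on day 3, 9.22 and 9.10 on day 5. They then read 9.23 and 9.43 on day 7, 9.83 and 9.83 on day 11, 9.69 and 9.78 on day 15, followed by 10.03 and 10.19 on day 18, 9.57 and 9.63 in iPSC. Pttg1 stood 0.31 above day 0 on day 1 and had its highest arrays on day 18. Against day 1 it rose by 1.10 ± 0.09 (SE) by day 15 (limma adjusted p = 1.21e-07).

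The motor genes move and order spindle microtubules. Kif11 pushes the poles apart, Kif2c takes microtubule ends down, and Kif4, Kif20a, Kif23 and the bundling protein Prc1 build the midzone where the cell divides. All 6 rose on day 1, Kif20a at 1.07 and not called after another quantile normalization (0.96), 2 were called on day 3, 3 on day 7 and 6 in iPSC. Kif2c stood at log2 7.75 and 7.71 on day 0, 9.42 and 9.42 on day 1, 9.03 and 9.11 on day 3, 9.17 and 9.21 on day 5. It was at 9.25 and 9.12 on day 7, 9.40 and 9.51 on day 11, 9.35 and 9.36 on day 15, then at 9.74 and 9.89 on day 18, 10.10 and 10.12 in iPSC. Kif2c was higher on both day 18 arrays, and highest on both iPSC arrays, than on any earlier array. For Prc1 the arrays read 8.88 and 8.70 on day 0, 9.89 and 9.92 on day 1, 9.18 and 9.41 on day 3, 9.27 and 9.22 on day 5. They then read 9.44 and 9.39 on day 7, 9.80 and 9.80 on day 11, 9.75 and 9.72 on day 15, followed by 9.88 and 10.03 on day 18, 10.15 and 10.23 in iPSC. The day 3 minus day 1 difference of Prc1 was -0.61 ± 0.09 (SE; limma adjusted p = 0.000104), and both arrays of days 3, 5 and 7 were below both of day 1. Kif23 and Kif4 showed the same order, with -0.54 ± 0.07 and -0.47 ± 0.07. Kif2c ended 2.38 ± 0.07 above day 0 in iPSC, the third largest difference of all members, and Kif20a 1.69.

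Condensin I (Ncapd2, Ncapg, Ncaph, Smc2, Smc4) folds mitotic chromosomes, and topoisomerase II alpha (Top2a) untangles them. On day 1 1 of 6 was called, Ncapg at 1.38 ± 0.09 (SE), and the others stood between 0.71 and 0.98 above day 0, under the fold minimum. On days 7, 11 and 15 5 of 6 were called, of which Smc4 on day 15, at 1.01, was lost under 4 alternatives (0.96 to 0.99), and in iPSC 6 of 6. Top2a stood at log2 9.46 and 9.52 on day 0, 10.43 and 10.52 on day 1, 10.25 and 10.37 on day 3, 10.50 and 10.56 on day 5. It was at 10.58 and 10.55 on day 7, 10.86 and 10.78 on day 11, 10.80 and 10.76 on day 15, then at 11.22 and 11.32 on day 18, 11.45 and 11.64 in iPSC. Both day 18 and both iPSC arrays of Top2a lay above all earlier ones. For Ncaph the arrays read 8.96 and 8.97 on day 0, 9.77 and 9.81 on day 1, 10.04 and 10.12 on day 3, 10.10 and 10.05 on day 5. They then read 10.32 and 10.27 on day 7, 10.49 and 10.44 on day 11, 10.28 and 10.39 on day 15, followed by 9.83 and 9.82 on day 18, 10.20 and 10.25 in iPSC. Both day 18 arrays of Ncaph lay below both of day 15. Ncaph was -0.51 ± 0.06 on day 18 against day 15, and Top2a 0.49 ± 0.08. Ncapd2 and Ncaph were higher on day 3 than on day 1, by 0.46 ± 0.06 and 0.29 ± 0.06, while Smc2, in the same complex, was -0.28 ± 0.07.

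**Figure D3:**
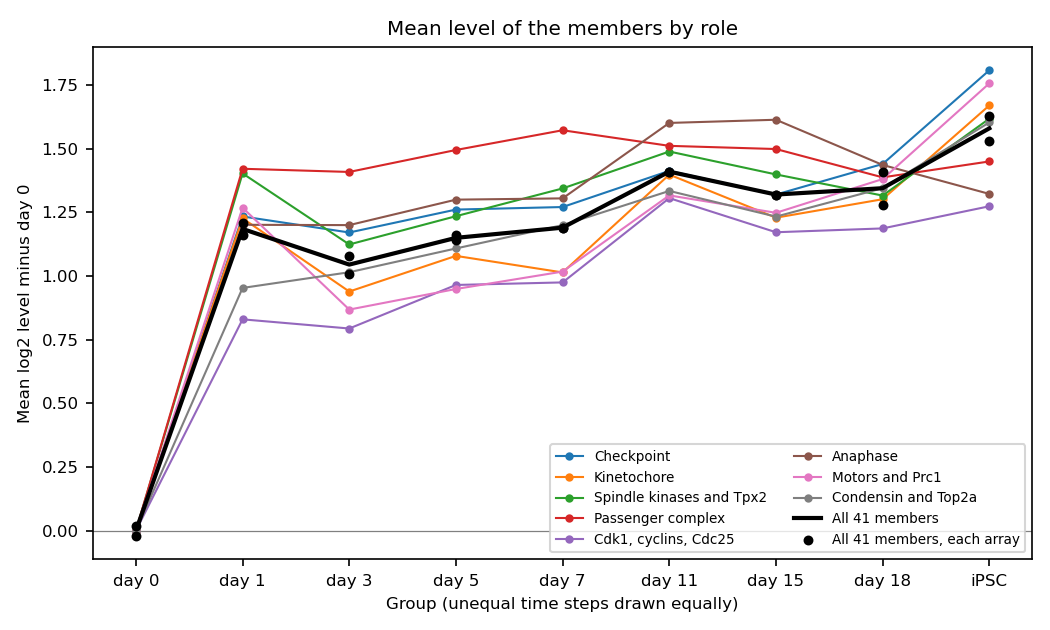
Mean log2 level of the members of each of 8 roles (coloured lines), and of all 41 (black line, with a point for each array), minus the day 0 mean, over the 9 groups in sampling order. The black line stands for a mean level of 8.49 at day 0, 9.67 at day 1, 9.54 by day 3 and 10.07 for iPSC.

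Of the 39 members at least 1 higher in iPSC than on day 0, 33 had covered 0.5 of that difference by day 1, 3 first did so on day 5 (Plk4, Top2a and Pttg1) and 3 on day 11 (Cenpf, Ccnb2 and Cdc25c). The share covered on day 1 had a median of 79.7% and ran from 21.1% for Ccnb2 to 160% for Cdc20, with 8 members already past their iPSC difference. The highest group was iPSC for 24 of all 41 members, day 11 for 5, day 1 for 4 and day 7 for 3. It was day 5 for 2, day 18 for 2 and day 15 for 1. Over the 18 arrays the 820 pairs of members had a median Pearson r of 0.83, and 2 pairs were under 0. The correlation with the mean of the other members was 0.98 for Plk1, Kif11, Cenpa, Bub1b and Ncapg, and lowest for Cdc25b (0.43), Bub3 (0.65), Ccnb2 (0.70) and Pttg1 (0.73). These correlations share the step from day 0 to day 1 and are given as a description.

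**Figure D4:**
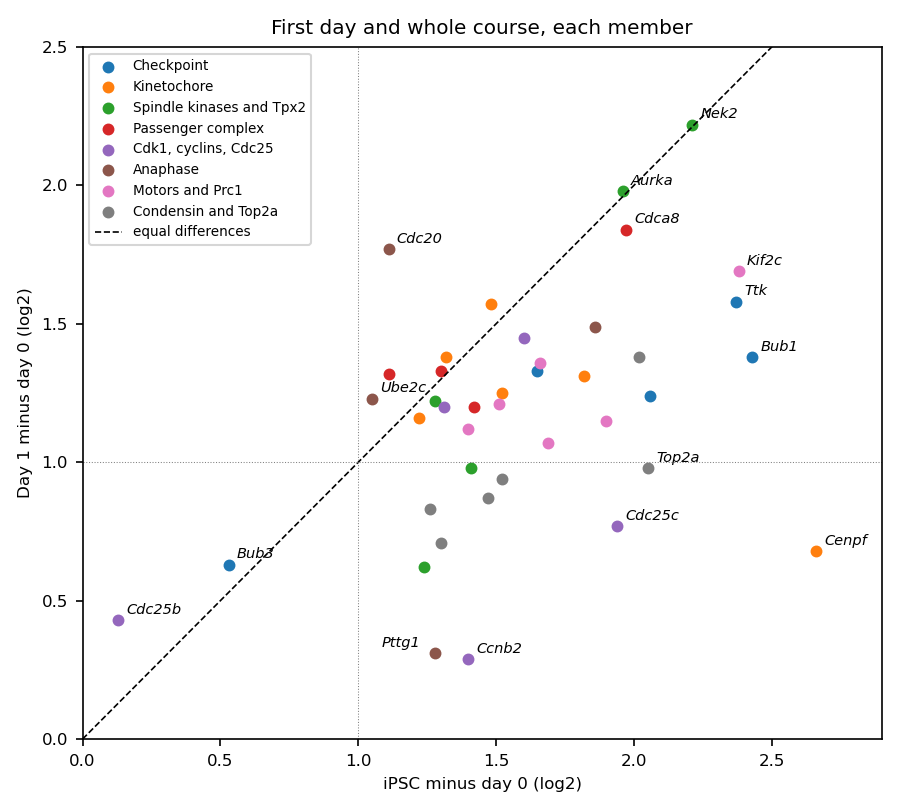
Difference of day 1 from day 0 (vertical, log2) against the difference of iPSC from day 0 (horizontal, log2) for each of 41 members, coloured by role, with dotted lines at 1 and a dashed line of equal differences. Nek2 and Aurka lie near the dashed line, Cdc20 above it at 1.77 and 1.11, and Cenpf, Ccnb2 and Pttg1 far below it.

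No member was called between neighbouring groups after day 1, and none in iPSC against day 15 or day 18. For these 7 successive comparisons, starting with day 3 against day 1 and ending with iPSC against day 18, the share of all genes called was 3.03%, 1.15%, 1.02%, 3.05%, 1.91%, 8.74% and 4.41%. For iPSC against day 15 the share was 11.0%, and without the first iPSC array 1 member was called. By limma's adjusted p alone, smaller differences could be followed. From day 1 to day 3 14 members were lower and 2 higher, against 15.7% and 16.8% of all genes. The 14 included 5 of the 6 motor genes and 3 of the 6 kinetochore genes, Prc1 leading with -0.61 ± 0.09 (SE). From day 7 to day 11 18 were higher and 1 lower (12.8% and 13.0% of all genes). Cenpf led with 0.88 ± 0.06, followed by Ccnb2 with 0.72 ± 0.06, Cdc25c with 0.62 ± 0.09 and Pttg1 with 0.49 ± 0.09. These 4 were named for the size of their difference, so both day 11 arrays lying above both day 7 arrays adds no evidence. From day 1 to day 15 2 members rose by the full rule (5.66% of all genes called higher), Pttg1 and, by 1.03 ± 0.06, Cenpf.

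On day 18 against day 15 12 were higher and 10 lower by adjusted p alone, against 19.7% and 27.0% of all genes. The members thus exceeded all genes among the higher ones only. The median of all 41 was 0.04, and -0.05 without the second day 18 array. Ttk (0.64 ± 0.10, SE), Bub1 (0.57 ± 0.11), Top2a (0.49 ± 0.08) and Kif2c (0.46 ± 0.07) were highest above day 15. Cdc20 (-0.65 ± 0.09), Cdc25b (-0.65 ± 0.10), Aurka (-0.61 ± 0.06) and Ncaph (-0.51 ± 0.06) were furthest below it. In this comparison limma's adjusted p was 2.40e-06 for Aurka and 8.84e-05 for Ttk. Since no cells were kept on doxycycline and vitamin C to day 18, their withdrawal cannot be told apart from time or from loss of cells. The second day 18 array read higher than the first for 36 of 41 members, by a median of 0.13, while the fibroblast markers averaged 8.24 on the first and 7.27 on the second. In iPSC the second array was also the higher for 38 of 41 members, and its fibroblast markers averaged 8.58 against 8.74. It was likewise the higher for 35 members on day 1 and 37 on day 3. There the fibroblast markers averaged 8.31 on the second array against 8.26 on day 1, and 7.00 against 7.13 on day 3. In the other groups neither array was the higher for more than 25 members. The part of fibroblast RNA in these gaps was not tested. The widest gap of a member between the day 18 arrays was 0.35, for Spc25.

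In iPSC against day 15, 24 members were higher and 4 lower by adjusted p alone, against 22.5% and 24.1% of all genes. Ttk (0.95 ± 0.10, SE), Cenpf (0.94 ± 0.06), Bub1 (0.86 ± 0.11), Kif20a (0.80 ± 0.07) and Top2a (0.77 ± 0.08) stood highest, just under the fold minimum. The 4 lower ones were Cdc25b, Cdc20 (-0.64 ± 0.09), Ube2c (-0.29 ± 0.06) and Incenp. Aurka, low on day 18, was 0.71 ± 0.06 higher in iPSC than there, and Pttg1 was -0.50 ± 0.09. Of 10 fibroblast markers 8 were called higher in iPSC than on day 15 and 0 lower, with a median difference of 2.56. Of all genes 11.0% were called in either direction.

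**Figure D5:**
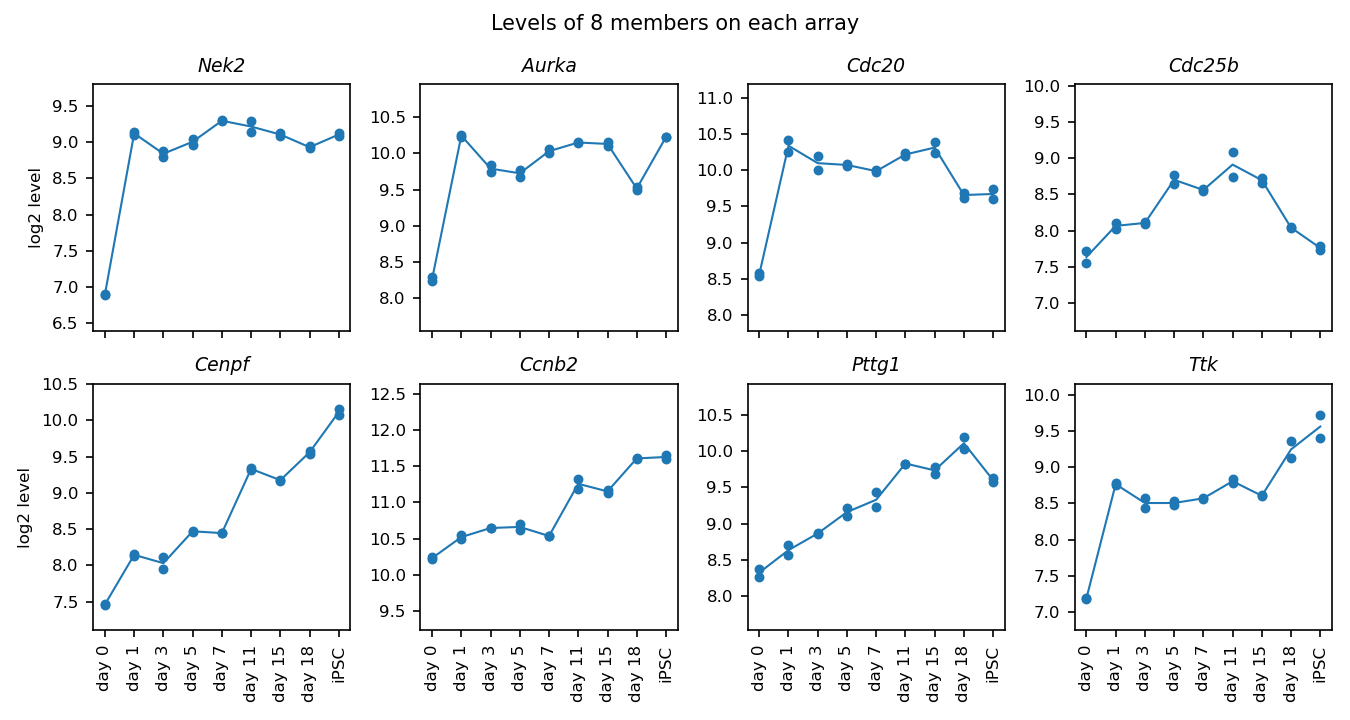
Log2 level of 8 members on each of 18 arrays (points, 2 per group) with lines joining the group means, on axes of equal height. Nek2 and Aurka jump on day 1, Cdc20 is lower on day 18 and in iPSC than on any induction day, Cdc25b is highest on day 11, and Cenpf, Ccnb2 and Pttg1 climb later.

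Other genes of the same machinery were taken as lists, and the values that follow are log2 differences from day 0 unless another comparison is named. Of all genes 7.62% were called higher on day 1 and 10.1% in iPSC, and 6.54% and 9.79% lower. Of 34 other kinetochore and centromere genes 17 rose on day 1 (50.0%) and 24 in iPSC (70.6%), and 0 fell in either, with median differences of 0.97 and 1.39. In iPSC the cohesin protector Sgo2a stood at 2.73 and the checkpoint gene Zwilch at 2.51. Of 27 other spindle and cytokinesis genes 20 rose on day 1 (74.1%) and 18 in iPSC (66.7%), with medians of 1.23 and 1.47, led by the abscission gene Cep55 on day 1 (2.01) and the motor gene Kif18a in iPSC (2.58). Of 15 condensin II and cohesin genes 4 rose on day 1 (26.7%) and 6 in iPSC (40.0%), with Esco2, which acetylates cohesin in S phase, at 3.22 and the cohesin protector Cdca5 at 2.12. Of 17 genes of the anaphase-promoting complex and its partners 2 rose on day 1 (11.8%) and 1 in iPSC (5.88%), shares near those of all genes. The 1 in iPSC was the inhibitor Fbxo5 (2.38), and the median was 0.34. All genes together had a median of 0.01 in both comparisons.

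Among 22 regulators of cell cycle promoters, E2F genes included, 3 rose on day 1 (13.6%, against 7.62% of all genes), namely Foxm1, Mybl2 and the MuvB gene Lin9. In iPSC 5 rose (22.7%, against 10.1%). Mybl2, which encodes B-Myb, stood 2.46 ± 0.09 (SE) above day 0 on day 1 and 3.71 ± 0.09 in iPSC (limma adjusted p = 7.50e-13). Foxm1 stood 1.26 ± 0.09 above day 0 on day 1 and 0.36 ± 0.09 in iPSC, and -0.82 ± 0.09 on day 18 against day 15 (adjusted p = 3.10e-06, under the fold minimum). Lin9 was at 1.34 and 1.46, and the NF-Y subunit gene Nfyb at 0.52 and 1.09. The pocket protein gene Rbl2, part of DREAM, was at -0.05 on day 1 and -0.90 in iPSC, neither called. The other pocket protein genes went the other way. Rbl1 read log2 8.44 and 8.43 on day 0 and 9.18 and 9.30 in iPSC, and Rb1 8.81 and 8.76, then 8.94 and 9.15. The E2F gene E2f5 read 7.80 and 7.73 on day 0 and 9.10 and 9.19 in iPSC. Among 18 cyclin and inhibitor genes of G1 and of Cdk1 control 4 rose and 4 fell on day 1 (22.2% each, against 7.62% and 6.54%). Those that rose were the cyclin E genes Ccne1 (1.47) and Ccne2 (1.87), Cdk6 (1.22) and Ccnf (1.75). Those that fell were the Cdk inhibitor genes Cdkn1b (-1.85), Cdkn1c (-1.48), Cdkn2b (-1.49) and Cdkn2c (-1.09). In iPSC 3 were higher and 6 lower (16.7% and 33.3%, against 10.1% and 9.79%), and Ccne1 and Ccne2 were no longer called, at 0.46 and 0.31. The 6 lower were Ccnd1, Ccnd2, Cdkn1c, Cdkn2a, Cdkn2b and Cdkn2c. The D cyclin gene Ccnd1 read log2 11.13 and 11.12 on day 0 and 9.25 and 9.27 in iPSC. Ccnd2 read 12.36 and 12.47, then 10.91 and 10.52. Cdkn1b, lower on day 1, read 7.77 and 7.76 on day 0 and 7.66 and 7.87 in iPSC. Wee1, whose kinase holds Cdk1 off, rose by 1.47 ± 0.07 in iPSC.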

How the data were processed

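Total RNA from 18 samples was biotin-labelled with an Affymetrix kit, per the labels' protocols. The deposited log2 levels carry RMA as their processing tool in the submitters' processing notes. That method gives the probe intensities of all arrays 1 distribution, which hides a shift common to most genes. RMA's version and the chip definition were not given in the sources used here. Array medians ran from 6.69 to 6.89. Accessions were matched without versions to RefSeq genes of GRCm38.p6: 27260 of 29643 probe sets had 1 symbol, giving 20233 genes, with the highest mean probe set per gene. Of the 41 members 8 had probe sets with differing values.

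limma (3.58.1, R 4.3.3) fitted a mean for each of 9 groups, with 9 residual and 4.25 prior degrees of freedom, tested on simulated data first. Adjustment was by Benjamini-Hochberg over all genes in each of 18 comparisons. Both arrays of every group are given for the members with the largest and smallest iPSC difference in each role. Ttk, Aurka, Cdc20, Ccnb2, Pttg1, Cdk1 and Ccna2 were added after their values were seen, as were other members named beside them. Of the other lists at most the 4 genes furthest from 0 are named, and any gene of the regulator and G1 lists. Members and lists were chosen with earlier results of these data known. Some genes that these rules would name are not reported here. Motif letters were counted with no test. Alternatives were normalization, probe choice, filters, fold minimum, spread model, array weights, replicate block and leaving out arrays.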

Additional observations from a re-analysis of the deposited data

How the results depend on the processing

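For comparisons with day 0, leaving out each array in turn gave 28 to 30 called members on day 1, 22 to 23 on day 3, 25 to 28 on day 5, 27 to 29 on day 7, 35 to 37 on day 11, 31 to 35 on day 15, 32 to 35 on day 18 and 39 to 39 in iPSC, and the F test 41 to 41. Between later groups these ranges were 0 to 0, except 0 to 1 for iPSC against day 15 and 2 to 2 for day 15 against day 1. A group left with 1 array was assumed to vary like the others. The minimum fold decides most counts. By adjusted p alone all 41 members passed on days 3 and 5 against day 0, and at a log2 minimum of 0.5 39 passed on day 3. By adjusted p alone the counts in later comparisons were 16 (day 3 against day 1), 8 (day 5 against day 3), 5 (day 7 against day 5), 19 (day 11 against day 7), 3 (day 15 against day 11), 22 (day 18 against day 15), 27 (iPSC against day 18), 28 (iPSC against day 15), 23 (day 7 against day 1) and 16 (day 15 against day 1). In that order 16.8%, 7.57%, 6.15%, 12.8%, 9.19%, 19.7%, 22.3%, 22.5%, 20.6% and 22.4% of all genes were higher. The shares lower were 15.7%, 7.19%, 5.86%, 13.0%, 7.03%, 27.0%, 14.9%, 24.1%, 19.2% and 23.7%. For day 7 against day 5 and day 15 against day 11 the members lay near or under these shares in both directions. Day 15 against day 1 had 13 of 41 members higher, above the share of all genes, and 3 lower, under it. Day 18 against day 15 had 12 of 41 higher, above the share of all genes, and 10 lower, slightly under it. At a minimum of 0.5 the member counts were 3, 1, 0, 3, 0, 6, 7, 13, 5 and 7 in that order. Shares of all genes were not taken at that minimum, for day 3 against day 0 either. Whether the members exceed all genes there was not tested. Centring arrays on their median left 1 call on day 15 against day 1. Another quantile normalization, the mean of a gene's probe sets, the dim-gene filter, an intensity trend, array weights and the fit without day 18 kept every count within 1.5 times. Whether the replicate numbers pair the arrays is not known, as the labels do not say how replicates were made. Over all genes, same-numbered deviations correlated over 0.1 in 6 of 36 pairs of groups. That cannot exclude a pairing that touches only some genes. With the replicate as a block 28 members were called on day 1 and 0 calls changed in any comparison. No called member reversed its direction under these alternatives. With 2 arrays a group, precision is limited by their number, and the median SE was 0.0976.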

Other observations

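Of 26 paralogues of the members 4 rose on day 1 (15.4%, against 7.62% of all genes) and 0 fell (6.54%). The 4 were Cdc25a (1.87), Kif20b (1.80), Ncapg2 (1.19) and Ncapd3 (1.06), and Kif20b, Ncapg2 and Ncapd3 are also counted in the spindle and condensin II lists. In iPSC 4 were higher (15.4%) and 3 lower (11.5%), near the 10.1% and 9.79% of all genes. Aurkc, the Aurora kinase gene of germ cells, stood at log2 4.34 on day 15, under the background of 5.28, at 6.96 on day 18 and 7.22 in iPSC. Its measured difference from day 15 to day 18 was 2.62 ± 0.17 (SE; limma adjusted p = 2.41e-08). The size is uncertain because the day 15 level lay within the background. Plk2, a stress-responsive relative of Plk1, fell by 1.40 on the log2 scale in the same interval, and Plk5 rose by 1.18. Nek6 stood at -1.50 in iPSC against day 0, while its relative Nek2 was at 2.21.

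Genes outside the list with a course close to the mean of the 41 members, by Pearson r over 18 arrays, included Zfp7 (0.985), Cdca2 (0.982), Ska3 and Oip5 (0.980 each), Lrrc40 and Mcm2 (0.979 each), and Brca1, Chek1 and Knl1 (0.977 each). These points share the step from day 0 to day 1. Zfp7, which encodes a zinc finger protein, stood at log2 6.24 on day 0, 7.92 on day 1 and 8.38 in iPSC, and the replication helicase gene Mcm2 at 9.19, 10.52 and 10.96.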
